A study of Arabidopsis thaliana with 9 samples.

Results

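Described here are the regions where peaks called for GRF1 and GRF3, a pair of Arabidopsis growth-regulating factors, overlap. These shared regions are 386 of the 1147 consensus regions of GRF1, each overlapping at least 1 bp of a GRF3 consensus region. They were chosen by the peaks themselves. A consensus region was a run of overlapping peaks found in at least 2 of the 3 libraries of a factor. On the GRF3 side, 384 of 2203 consensus regions took part, so the shared regions were 33.7% of the GRF1 list and 17.4% of the GRF3 list. The peaks came from chromatin immunoprecipitation sequencing (ChIP-seq), in which DNA bound by a protein is recovered with an antibody and sequenced. The 3 GRF1 libraries came from 35S:GRF1-GFP plants and the 3 GRF3 libraries from 35S:GRF3-GFP plants, whole plants of strain Ws, 2 weeks old, grown on MS medium without a further treatment in the labels. The antibody recognised GFP, the green fluorescent protein fused to each factor. The 35S promoter, which drove both fusions, is strong and active in most plant tissues, not only where the factors are normally made. How many transgenic lines stand behind a group is not stated in the labels, and the 3 libraries of 35S:GFP plants were not analysed here.

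Growth-regulating factors are plant transcription factors with a DNA-binding WRC domain and a QLQ domain, through which they bind GIF coactivators. They are known for promoting cell proliferation in young leaves, and most of them are repressed by the microRNA miR396. Several family members are present in the same young tissues and are partly redundant in mutants, which makes the sites they bind in common of interest.

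The lists held 1122 to 5944 peaks per library. Each peak carried a fold, the authors' enrichment over the control of their peak caller. That fold comes from whole plants, where fewer cells with the factor bound and less binding per cell cannot be told apart. The sources used here do not name that control. A control common to all libraries would also give shared regions, and its part in the overlap was not tested. No list gives read counts, so depth is unknown. Because folds of different lists rest on different libraries, levels were placed within a list by the fold percentile, 0 for the peak with the lowest fold and 100 for the highest. Folds of both factors are printed side by side as values, not as a comparison between lists. A longer list with more weak peaks gives the same site a higher percentile, so percentiles also depend on list length. GRF1 replicate 2 and GRF3 replicate 3 stood apart, the first with the shortest list and the second with the longest.

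Shared regions took in most of the strongest GRF1 peaks. Of the 50 peaks with the highest fold, 47, 46 and 46 lay in shared regions in GRF1 replicates 1, 2 and 3, and 45, 23 and 35 in GRF3 replicates 1, 2 and 3. As a share of the whole list, shared regions held 26.1%, 24.6% and 20.3% of GRF1 peaks and 16.3%, 15.3% and 6.29% of GRF3 peaks. These values describe peaks that the choice of members used, so no test was run on them. Of the 386 members, 168 had a peak in all 6 libraries, 147 in 5 and 71 in 4. GRF1 replicate 2 lacked a peak at 125 members and GRF1 replicate 3 at 11. Among the GRF3 libraries, replicate 2 lacked 61 members and replicate 3 lacked 15. The count of shared regions depended on single GRF1 libraries: it was 250 without GRF1 replicate 1 and 239 without GRF1 replicate 3, when both remaining libraries had to hold a peak.

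The members were of unlike kinds. By width, 129 were at most 330 bp and 36 were over 1000 bp, a division made after the values were seen. The 129 narrow members had a median of the GRF1 mean folds of 16.7 and of the GRF3 mean folds of 7.89. The 257 wider members had medians of 2.09 for GRF1 and 2.71 for GRF3. Only 19.4% of narrow members lay in gene-poor windows (fewer than 10 protein-coding genes in 100 kb), against 64.98% of the wider ones. GRF1 replicate 2 had a peak at 87.6% of the narrow and 57.6% of the wider members, while GRF3 replicate 2 had one at 65.9% of the narrow and 93.4% of the wider members. The library without a peak thus differed between the narrow and the wide members.

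Among regions found in all 6 libraries, the 15 with the highest mean fold percentile lay mostly at genes: 8 inside a protein-coding gene, 3 within 1 kb of one and 4 with none within 1 kb. The highest was 132 bp from AT5G37240 (chr5:14739571-14739875, TAIR10). It had folds of 89.1, 94.2 and 136 in the GRF1 libraries, against 60.2, 29.4 and 44.8 in the GRF3 libraries. Its percentile was 100 in the GRF1 libraries and GRF3 replicate 1, and above 99.9 in the other two.

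At AGL14, a MADS-box transcription factor gene of root development (chr4:7146447-7146731), the folds were 41.4, 52.0 and 58.9 for GRF1, against 37.3, 18.8 and 27.9 for GRF3. SECA2, which encodes a motor ATPase of chloroplast protein translocation (chr1:7599735-7600022), had folds of 42.6, 47.4 and 66.7 for GRF1, against 36.1, 15.4 and 24.0 for GRF3. UGT73C2, a sugar-transferring enzyme gene (chr2:15414565-15414848), had 45.1, 49.7 and 69.4 for GRF1, against 29.96, 14.8 and 22.6 for GRF3. In these genes the libraries kept nearly the same order: GRF1 replicate 3 was the highest of its factor at all 15 regions, and GRF3 replicate 2 the lowest of its factor at 14. CRN encodes CORYNE, a membrane kinase-like protein of the CLAVATA pathway that limits the shoot stem cell niche. Its region (chr5:4254767-4255052) had folds of 34.3, 39.0 and 51.5 for GRF1, against 27.7, 14.5 and 20.1 for GRF3. SFC, an ARF-GAP gene of vein patterning, lay within 1 kb of the same summit.

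**Figure D1:**
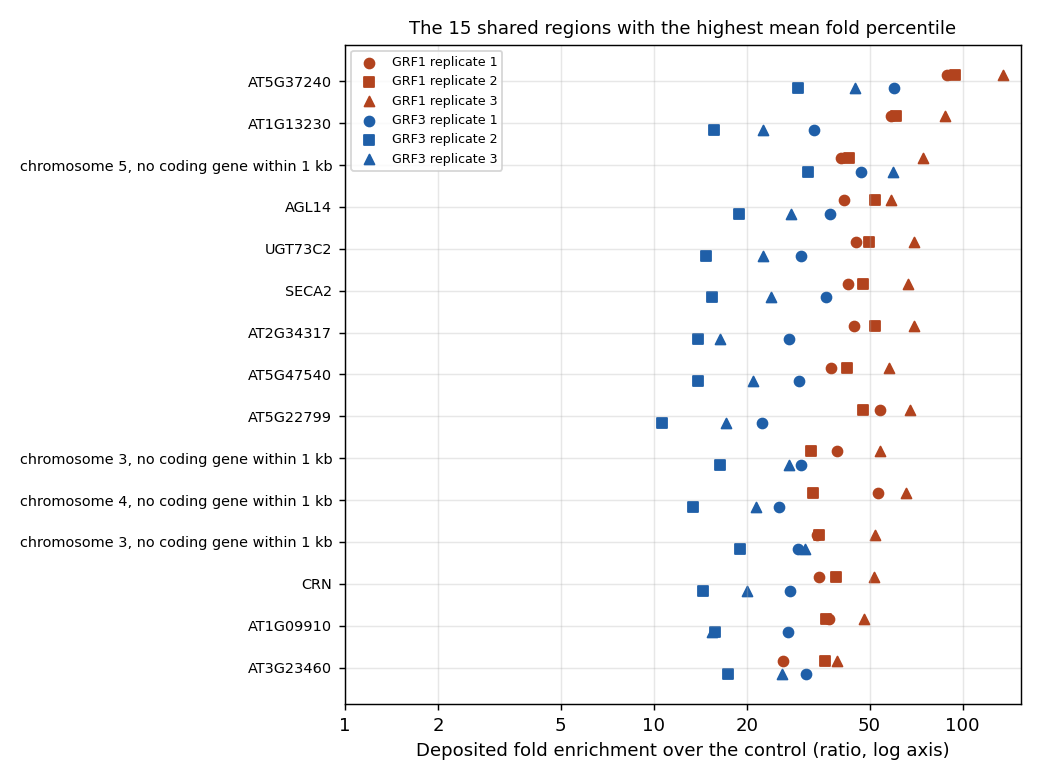
Deposited fold enrichment (x axis, ratio over the control, log axis) in each of 6 libraries at the 15 regions with the highest mean fold percentile, named by the nearest protein-coding gene. Each point is 1 library, with GRF1 replicates in red-brown and GRF3 replicates in blue; GRF1 folds ran from 26.3 to 136 and GRF3 folds from 10.6 to 60.2.

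The other 10 of the 15 regions included genes known here by locus only, AT2G34317, AT5G47540, AT1G09910 and AT3G23460, each holding the summit inside its span, and AT1G13230 and AT5G22799 beside it. At AT1G13230 (chr1:4522724-4523143) the folds were 58.6, 61.0 and 87.6 for GRF1, against 33.0, 15.7 and 22.5 for GRF3. One region without a coding gene (chr5:24022828-24023156) lay inside AT5G59630, which RefSeq classes as a transcribed pseudogene, and had 40.5, 43.0 and 74.4 for GRF1, against 46.8, 31.6 and 59.6 for GRF3. Within the lists these regions were close to the top for both factors: the mean percentile was 99.6 for GRF1 and 99.8 for GRF3 at AGL14, and 99.5 and 99.7 at SECA2. The summit stood in the first 25% of the region, at lower coordinates, in 10 of the 15, and in the last 25% in 0.

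The shared regions lay inside or within 1 kb of 223 of 27432 protein-coding genes (0.813%), and inside the span of 108 of them (0.394%). Of 17 gene lists, 12 had at least 1 such gene, 19 genes in all out of 1361. The list percentages below can be read against 0.813%; with 0 to 3 genes in a list, no list was set apart from the rest. No growth-regulating factor gene had a shared region: 0 of 14 GRF, GIF and miR396 genes, of which 2 had a GRF1 region and 1 a GRF3 region. The 8 genes that carry the same symbols as general regulatory factors (14-3-3 proteins) had 0 as well. Among the 14, the GRF1 regions lay at GRF1 itself (AT2G22840, 3 regions) and at GRF7 (AT5G53660, 1 region). The GRF3 regions lay at GRF3 itself (AT2G36400, 2 regions). Most of these regions were thus at the gene of the factor that each group of plants overexpressed.

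Auxin genes had 3 of 82 (3.66%), all named as auxin response factors and all with the summit inside the gene. Proteins of that family bind the promoters of auxin-regulated genes, though a symbol alone does not show that each gene makes a working factor. ARF14 (chr1:13108894-13109203) had folds of 22.5, 14.3 and 26.5 for GRF1 and, without a peak in replicate 2, 7.04 and 9.41 for GRF3. ARF23 (chr1:16673554-16673825), in a gene-poor window, had 13.96, 9.65 and 16.8 for GRF1, against 8.55, 9.73 and 10.8 for GRF3. The GRF3 peaks of replicates 2 and 3 there had summits outside the GRF1 region, and the summits of the factors' regions were 558 bp apart. ARF19, an activator known from lateral root formation (chr1:6630292-6630565), had 5.09, 4.52 and 6.34 for GRF1, against 3.58, 2.24 and 15.6 for GRF3. In ARF19 the GRF3 mean of 7.13 ± 7.33 (SD, n = 3) thus rested on replicate 3, which was 4.35 times the next library.

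Cytokinin genes had 1 of 74 (1.35%). It was CRF1, an AP2-type cytokinin response factor gene (chr4:6796952-6797213, 575 bp from the span), with 20.7 and 24.8 in GRF1 replicates 2 and 3 and 12.4, 8.47 and 13.6 in the GRF3 libraries. Core cell cycle genes had 2 of 54 (3.70%), both named after activators of the anaphase-promoting complex, which marks mitotic cyclins for destruction. CCS52A2 (chr4:7163446-7163842, 227 bp away) had folds of 3.04, 6.38 and 4.87 for GRF1, against 9.38, 9.64 and 10.9 for GRF3. CDC20.5 shared its region with AGL89, a MADS-box gene (chr5:9736214-9736916), at 3.62, 6.31 and 4.38 for GRF1, against 7.34, 7.79 and 8.75 for GRF3. At both, the GRF3 libraries lay close together, and GRF1 replicate 2 was the highest of its factor.

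Of the transcription factor lists, MADS-box genes had 2 of 97 (2.06%), AGL14 and AGL89. NAC genes had 2 of 81 (2.47%). NAC067 (chr4:659451-659751) had 36.3, 26.3 and 46.5 for GRF1, against 14.9, 8.56 and 12.7 for GRF3. NAC085 (283 bp from the summit, which is inside AT5G14480; chr5:4669951-4670223) had 23.0, 15.5 and 30.1 for GRF1 and 12.3 and 8.86 in GRF3 replicates 1 and 3. WRKY genes had 1 of 67 (1.49%), WRKY21 (chr2:13034349-13034656), with 10.5, 14.4 and 17.4 for GRF1, against 13.0, 7.23 and 21.2 for GRF3. Clock genes had 1 of 23 (4.35%), ELF3, a component of the evening complex. Its region had peaks in 2 libraries of each factor, with folds of 2.32 and 4.22 for GRF1 and 2.30 and 2.18 for GRF3. MYB genes (0 of 115) and leaf and meristem genes (0 of 75) had none.

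Among enzyme and transporter lists, ABC transporters had 1 of 124 (0.806%), ABCC5 (chr1:1070628-1070913), a vacuolar carrier of inositol hexakisphosphate, with 25.8, 28.7 and 38.6 for GRF1, against 13.9, 8.34 and 10.5 for GRF3. Cytochrome P450 genes had 3 of 220 (1.36%). CYP71B31 had 2.95, 6.23 and 4.32 for GRF1, against 9.08, 9.64 and 12.04 for GRF3, whose region had its summit 211 bp away and outside the GRF1 region. CYP72A13 and CYP705A32 had no fold above 3.06 in any library. The chromatin list had 1 of 74 (1.35%), HTA8, a histone H2A.Z gene (chr2:16221314-16221592), with 21.2, 34.03 and 57.5 for GRF1 and 18.5 and 20.4 in GRF3 replicates 1 and 3. UGT genes had 1 of 58 (1.72%), UGT73C2, and embryo genes 1 of 118 (0.847%), EMB2820, with 2 weak regions and no fold above 2.14. Heat shock genes (0 of 30) and cold and drought genes (0 of 49) had none.

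**Figure D2:**
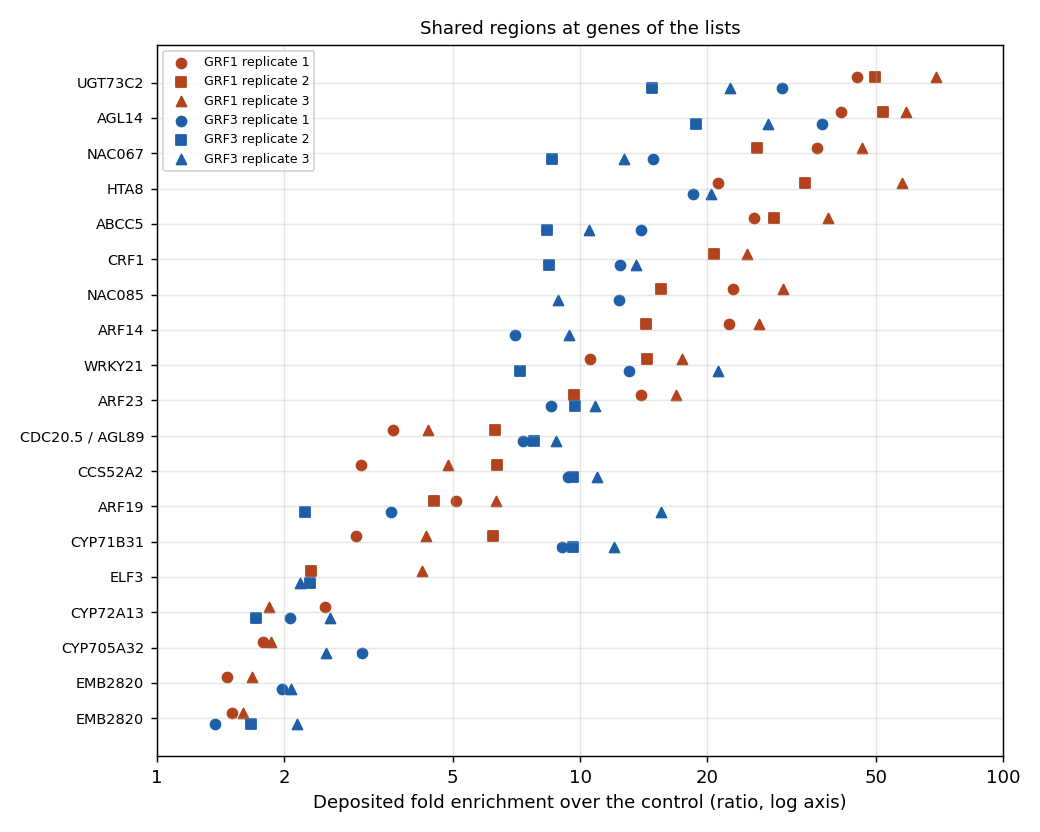
Deposited fold enrichment (x axis, ratio over the control, log axis) of the 19 shared regions at genes of the lists, ordered by the mean GRF1 fold percentile. Each point is 1 library, GRF1 in red-brown and GRF3 in blue, and a missing point is a library without a peak; UGT73C2 and AGL14 are at the top and the 2 EMB2820 regions at the bottom.

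Further members at genes of known function were chosen after their values were seen. For 4 narrow regions inside genes, the mean percentile was 99.0 for GRF1 and 95.7 for GRF3 at KCS12, 97.1 and 90.7 at HLS1, 92.6 and 85.4 at TOR, and 95.4 and 89.3 at LPR1. KCS12, a ketoacyl-CoA synthase gene of very-long-chain fatty acid synthesis (chr2:12277160-12277452), had 37.2, 38.3 and 52.5 for GRF1, against 18.6, 8.08 and 12.1 for GRF3. HLS1, HOOKLESS1, needed for the apical hook of seedlings (chr4:17660683-17660960), had 23.1, 21.8 and 34.3 for GRF1, against 10.4, 6.28 and 8.25 for GRF3. TOR, the growth-controlling kinase (chr1:18537197-18537471), had 13.2, 12.7 and 17.2 for GRF1 and 6.60 and 4.47 in GRF3 replicates 1 and 3. LPR1, a ferroxidase gene of the root response to low phosphate, had 19.1, 16.6 and 26.6 for GRF1, against 10.9, 3.92 and 6.96 for GRF3.

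PERK4 and GAUT10 were wider regions inside genes. PERK4, a proline-rich receptor-like kinase gene (chr2:8004886-8005303), had 3.33, 6.03 and 4.70 for GRF1, against 9.18, 8.95 and 11.8 for GRF3. GAUT10, a galacturonosyltransferase gene of pectin synthesis (chr2:8958780-8959203), had 2.69, 5.31 and 3.96 for GRF1, against 6.90, 6.48 and 8.21 for GRF3. GAUT7, of the same family, was instead narrow, 276 bp, with 21.1, 20.8 and 29.9 for GRF1, against 12.5, 5.22 and 7.63 for GRF3. SEU and LUG, which encode partner corepressors of floral identity genes, both had a member inside the gene. SEU (chr1:16620709-16621027) had 4.02 and 4.69 in GRF1 replicates 2 and 3 and 2.84, 2.60 and 18.2 for GRF3. LUG (chr4:15709380-15709648) had 3.54 and 4.10 in GRF1 replicates 2 and 3 and 3.13, 2.94 and 14.6 for GRF3. As in ARF19, GRF3 replicate 3 alone was high at both genes, and the 2 genes had no peak in GRF1 replicate 1.

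Over all members, 111 summits were inside a protein-coding gene, 63 within 1 kb of one, 104 in a pseudogene span away from coding genes and 108 with no such annotation. Pseudogene spans are those that RefSeq classes as pseudogenes. The mean folds differed by class, which describes members chosen by their peaks and was not tested. Inside genes the median was 9.83 for GRF1 and 6.49 for GRF3, and within 1 kb it was 4.77 and 8.68. In pseudogenes it was 1.83 and 2.60, and away from any such annotation 2.18 and 2.71. Found in all 6 libraries were 52.3% of members inside genes, 71.4% of those within 1 kb, 20.2% of those in pseudogenes and 40.7% of the rest.

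In gene-poor windows lay 192 members, most of them weak, with median mean folds of 2.00 for GRF1 and 2.50 for GRF3, against 7.77 and 6.97 for the 194 members in other windows. A mean GRF1 fold of at least 10 was found at 16 of the gene-poor members. GRF1 replicate 2 had no peak at 51.0% of the gene-poor members and at 13.9% of the others. In 22 runs of 3 or more members, with neighbours within 10 kb, lay 108 members, of which 87 were in gene-poor windows. The longest run held 15 members in 44.7 kb of chromosome 5 (chr5:11701937-11746675), where no mean fold was above 2.30 for GRF1 or 3.06 for GRF3. Runs of 7 were on chromosomes 1, 2, 4 and 5, and 1 of the 2 on chromosome 2 began at position 1108 of the chromosome.

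Some members lay on ribosomal RNA genes, which are present in many tandem copies in the plant genome. RefSeq places 4 rRNA gene spans on chromosomes 1 to 5, and all 4 were overlapped by 3 members. The member at chr2:3252-7461 had folds of 1.49, 1.56 and 1.91 for GRF1, against 3.85, 3.77 and 5.44 for GRF3. Its GRF3 folds belong to peaks of the wider GRF3 region (chr2:1082-7497) whose summits stand outside the GRF1 region. Of all members found in all 6 libraries, it was the one whose GRF3 percentile (81.5) most exceeded its GRF1 percentile (8.40). The member over the rRNA gene AT3G41768 (chr3:14197694-14199489) had 1.72, 1.76 and 2.34 for GRF1, against 3.27, 3.62 and 5.52 for GRF3, again from peaks with summits outside it, in a GRF3 region of 11500 bp. It too was among the 5 with the largest excess in GRF3, with chr2:8456-9624 and the neighbours chr4:5582611-5582954 and chr4:5585463-5586005. The 5 members with the largest excess in GRF1 were all in gene-poor windows, on chromosomes 1, 2 and 5. The first of them, at AT2G07981 (chr2:3615966-3617250), had 2.19, 1.44 and 2.49 for GRF1, against 1.53, 1.71 and 1.61 for GRF3.

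Across the 168 members found in all 6 libraries the order of folds was compared between libraries. Between libraries of 1 factor, Spearman's rho of the folds was 0.929 to 0.958 for GRF1 and 0.907 to 0.929 for GRF3. Between libraries of different factors it was 0.753 to 0.944. These correlations run over regions that share libraries and possibly a control, and are given as a description. In 10 of the 168 members (5.95%) every GRF1 percentile was above every GRF3 percentile, and in 76 (45.2%) the reverse held. The GRF3 lists held 2258, 2301 and 5944 peaks in replicates 1, 2 and 3, against 1410, 1122 and 1878 in the GRF1 lists. Percentiles depend on list length, and its part in this split was not tested.

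**Figure D3:**
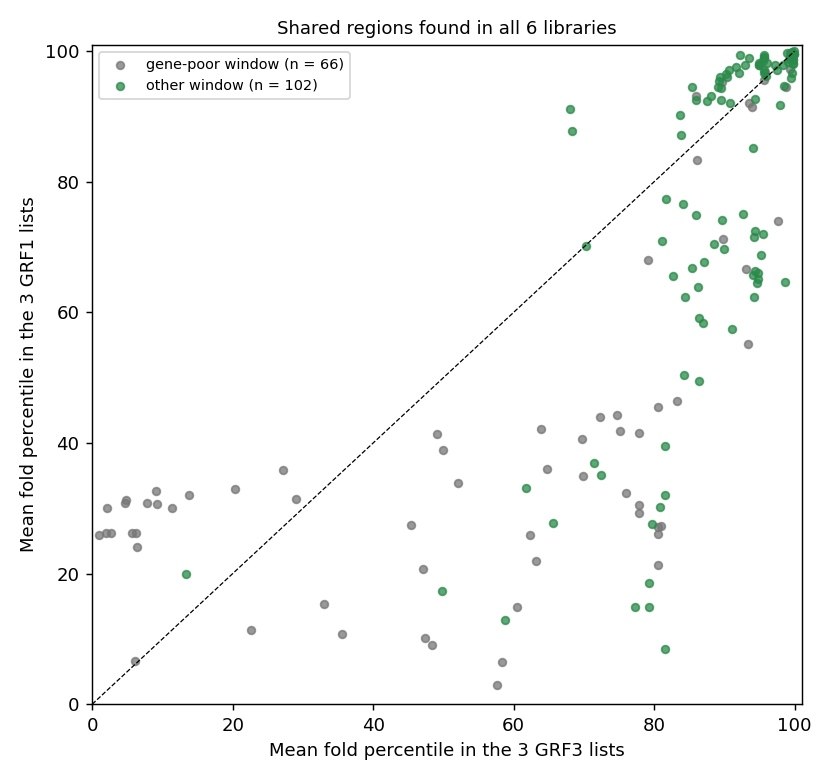
Mean fold percentile in the 3 GRF1 lists (y axis) against that in the 3 GRF3 lists (x axis) for the 168 shared regions found in all 6 libraries. Points are regions, grey for the 66 in gene-poor 100 kb windows and green for the 102 in other windows; the dashed line marks equal percentiles, and most regions outside gene-poor windows lie in the upper right.

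Peak positions along genes were not used to choose the members, so they were compared with the other consensus regions of the same factor, library by library. In each of the 6 libraries the share of summits just outside genes was lower in shared than in other regions and the share in gene-poor windows was higher, but neither difference passed the adjusted threshold. The first direction did not hold for the mean of the GRF3 libraries when GRF1 replicate 1 or GRF1 replicate 3 was left out. Within 1 kb outside a gene span were 16.8%, 21.7% and 16.5% of summits in shared regions and 34.3%, 53.5% and 35.2% of those in other regions, in GRF1 replicates 1, 2 and 3. The same shares were 17.4%, 17.8% and 17.4% in shared and 27.9%, 23.6% and 19.5% in other regions, in GRF3 replicates 1, 2 and 3. The shares in shared regions were close together, apart from GRF1 replicate 2, while those in other regions ranged widely. The mean difference was -14.4 percentage points ± 10.7 (SD, n = 6 libraries; exact sign-flip permutation test, two-sided, p = 0.031, the smallest 6 libraries allow). Adjusted over the 5 position classes (Benjamini-Hochberg), the exact test's p = 0.0521 did not pass 0.05. The 6 libraries see the same sites, so these values are less independent than the test assumes.

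In gene-poor windows were 51.4%, 38.8% and 50.7% of summits in shared regions and 37.9%, 8.78% and 37.1% of those in other regions, in the GRF1 libraries. In the GRF3 libraries they were 48.9%, 56.1% and 49.7% in shared and 26.6%, 39.9% and 37.9% in other regions. The shared regions were higher in all 6 libraries, by 17.9 percentage points ± 6.98 (SD, n = 6; exact sign-flip p = 0.031, adjusted p = 0.0521), but by 4.09 points with folds of at least 4. Summits over 1 kb from any protein-coding gene gave a mean difference of 16.04 points ± 6.93 (SD, n = 6; higher in 6 of 6 libraries, exact sign-flip p = 0.031, adjusted p = 0.0521). Without GRF1 replicate 1 or GRF1 replicate 3, the mean of this difference over the GRF3 libraries was negative. Gene-poor windows were 13.6% of all windows. With every list limited to the 1122 peaks highest in −log10 q, the differences within 1 kb, over 1 kb and in gene-poor windows kept their direction and passed the threshold (exact sign-flip, adjusted p = 0.0391 each). There the difference inside protein-coding genes passed as well, at 11.3 points (exact sign-flip, adjusted p = 0.0391), opposite in sign to its value of -1.65 with the full lists. The unadjusted exact sign-flip p was 0.031, the smallest possible, with the full lists already. The adjusted p was lower here only because the difference inside genes also reached that smallest value. The differences over 1 kb (11.2 points) and in gene-poor windows (12.6) were smaller than with the full lists, and that within 1 kb (-22.5) was larger.

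Summits inside protein-coding genes and inside pseudogenes went opposite ways in the GRF1 and the GRF3 libraries. Inside pseudogene spans were 28.0%, 14.9% and 28.3% of summits in shared regions and 6.39%, 1.93% and 6.07% of those in other regions, in the GRF1 libraries. In the GRF3 libraries the shares were 24.7%, 31.2% and 28.9% in shared and 27.1%, 39.0% and 37.1% in other regions. The difference between shared and other regions was 18.9 points ± 5.21 for GRF1 and -6.15 ± 3.26 for GRF3 (SD, n = 3 each). The factors' differences were 25.1 points apart (exact permutation test of 3 against 3, two-sided, p = 0.1, the smallest possible; adjusted over 5 classes, p = 0.167). With folds of at least 4 they were 1.90 points apart. Inside protein-coding genes the differences were 3.45 points ± 1.04 for GRF1 and -6.76 ± 1.14 for GRF3 (SD, n = 3 each; 10.2 points apart, exact permutation p = 0.1, adjusted p = 0.167). This contrast inside genes turned round with stricter peaks: it was -13.99 points with folds of at least 4, -6.71 with a −log10 q of at least 5, -10.6 with peaks required in all 3 libraries of a factor and -9.66 with lists of equal length. It was -0.279 without GRF1 replicate 3 and -0.0494 without GRF3 replicate 1.

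**Figure D4:**
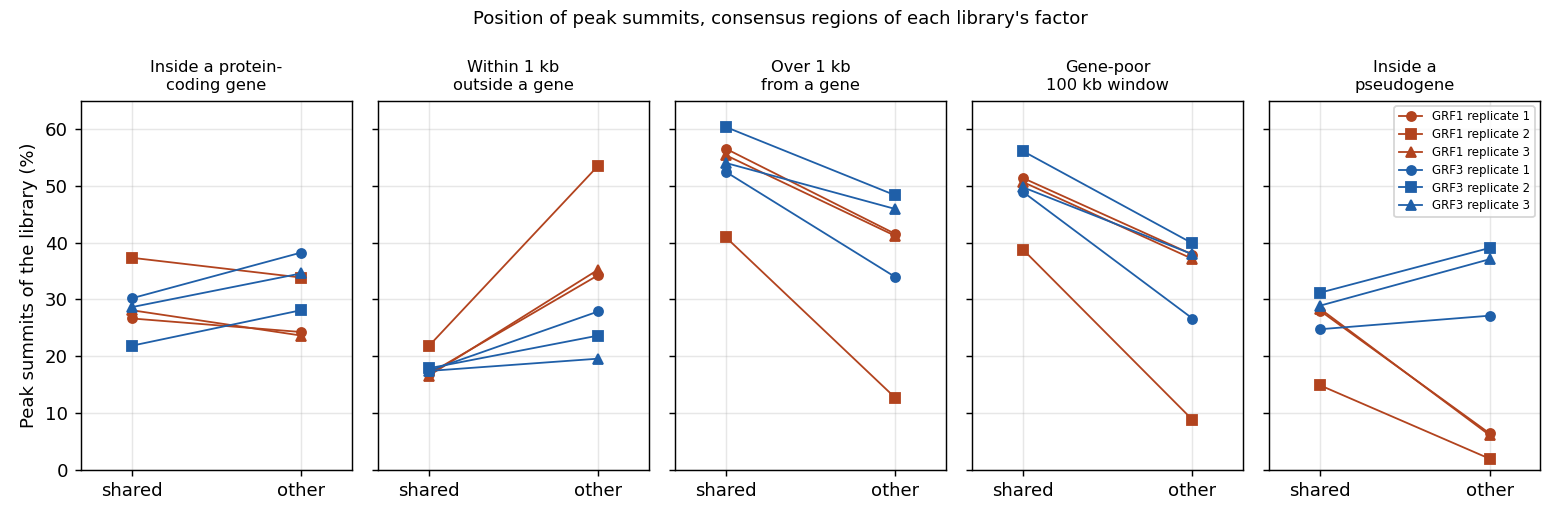
Share of peak summits (y axis, percent of the library's summits in that kind of region) in 5 position classes, for shared regions (left of each panel) and the other consensus regions of the same factor (right). Each line is 1 library, GRF1 in red-brown and GRF3 in blue; all 6 lines rise toward the other regions within 1 kb outside genes and fall in gene-poor windows, while pseudogene lines of the factors run in opposite directions.

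Whether shared regions recur in a library that had no part in choosing them was asked by holding out each library in turn. Regions and sharing were redefined from the other 5 libraries, with both remaining libraries of the held-out factor required. A peak was found at 88.8%, 63.98% and 95.4% of shared regions and 83.6%, 55.5% and 92.7% of other regions, in GRF1 replicates 1, 2 and 3. In GRF3 replicates 1, 2 and 3 a peak was found at 83.8%, 80.9% and 94.7% of shared regions and 52.7%, 64.995% and 86.6% of other regions. The shares were higher for shared regions in all 6 libraries. The difference averaged 11.9 percentage points ± 10.4 (SD, n = 6; exact sign-flip permutation test, two-sided, p = 0.031, the smallest possible; adjusted over the 2 measures p = 0.0625, not past 0.05). It was 6.65 points with folds of at least 4 (exact sign-flip, adjusted p = 0.562) and 6.35 with lists of equal length. The runs of a factor share libraries and counted largely the same sites. A peak was found at 222, 222 and 228 shared regions in the GRF1 runs, and at 258, 259 and 270 in the GRF3 runs. The 6 values are therefore less independent than the test assumes.

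The median fold percentile of peaks at shared regions was 82.5, 77.7 and 76.2 in GRF1 replicates 1, 2 and 3, against 71.5, 69.4 and 70.6 at other regions. In GRF3 replicates 1, 2 and 3 it was 69.9, 74.1 and 88.7 at shared regions, against 77.4, 81.0 and 91.0 at other regions. Shared regions were thus 8.29 points ± 2.73 higher in the GRF1 libraries, while their difference in the GRF3 libraries was -5.58 ± 2.78 (SD, n = 3 each). Over the 6 libraries the mean was 1.36 points ± 7.99 (SD, exact sign-flip p = 0.719), and its sign depended on the setting. It was -9.87 without GRF1 replicate 2 and -3.35 without GRF3 replicate 3, and positive in the other alternatives, up to 11.7 without GRF3 replicate 2. In the runs without a library, holding out another library of that factor left a single one. Its peaks alone then defined that factor's regions, so these runs used a looser rule. With folds of at least 4 it was 7.08 and higher for shared regions in all 6 libraries (exact sign-flip, adjusted p = 0.0625, the smallest adjusted value here).

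**Figure D5:**
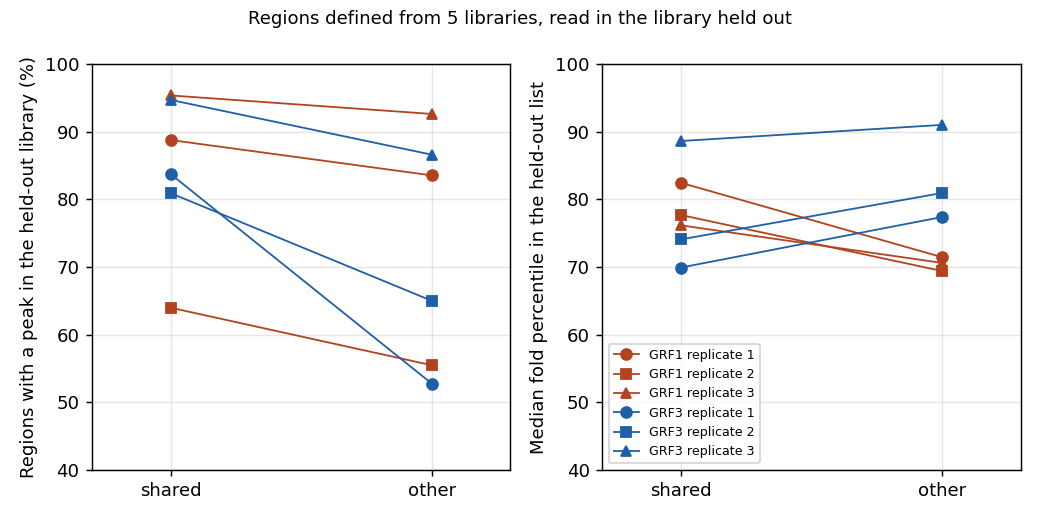
Share of regions with a peak in the held-out library (left panel, percent) and median fold percentile of those peaks in its list (right panel), for shared regions and for other consensus regions of the same factor. Each line is 1 held-out library, GRF1 in red-brown and GRF3 in blue; in the left panel all 6 lines are higher for shared regions.

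Within the members, the summits of both factors lay close to each other. The summit of the GRF1 region and that of the GRF3 region were a median of 10 bp apart, at most 20 bp apart in 246 members (63.7%) and over 200 bp apart in 41. In 26 members the summit of the GRF3 region lay outside the GRF1 region. Between single libraries the median gap was 5 to 6 bp within GRF1, 5 to 6 bp within GRF3 and 6 to 10 bp between the factors, over the 168 members found in all 6. The overlap required was 1 bp, yet the smallest was 154 bp, at chr5:12593507-12593766 near AT5G33330 and CDR1, with GRF3 summits outside the GRF1 region and folds of 12.4, 11.3 and 17.2 for GRF1, against 9.08, 9.05 and 10.4 for GRF3. The next were 168 bp at chr3:15000684-15000955 and 200 bp inside AT4G18150. Just outside the rule, the GRF1 region nearest to a GRF3 region without touching it was 71 bp away, at URH2 and 5PTASE13 (chr1:1681877-1682432), with GRF1 folds of 2.93, 5.27 and 1.89. The next 2 were 83 and 227 bp away.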

How the data were processed

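The data were 6 peak lists, 3 for 35S:GRF1-GFP plants and 3 for 35S:GRF3-GFP plants. Per the submitters' processing notes, the genome build was TAIR10 and FastQC, Trimmomatic, Bowtie2 and MACS2 were used, without versions or settings. The deposited lists give each peak's position, its summit, a fold (a ratio over the control), the −log10 of its p-value and q-value, and a score, which in all 14913 peaks was the whole part of 10 times the −log10 q, per the deposited values. Folds were read within a list. A region's fold in a library is that of its highest peak, and a GRF3 fold comes from the GRF3 regions a member overlaps. Genes came from the RefSeq table of TAIR10.1, used for names and neighbourhood only; distances assume the same chromosome coordinates. No genome sequence was used, so no sequences or motifs are given. Tests were exact permutations over libraries (Python 3.11.15, numpy 2.4.6), and the counting was tested on simulated peaks, where 120 of 120 planted shared regions were found. Those planted peaks were narrow and far apart, so wide regions and regions with several overlaps were not covered. Whether replicates came from separate plants is not stated, so p-values measure the spread between these libraries. Named regions were the 15 highest in mean fold percentile, the 5 with the largest percentile difference each way, those nearest the overlap limit, and those at genes of 17 lists. Members, lists and tests were chosen with earlier results of these data known.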

Additional observations from a re-analysis of the deposited data

Results flagged for a closer look

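The difference between shared and other consensus regions went one way in every GRF1 library and the opposite way in every GRF3 library for 3 measures. For summits inside protein-coding genes it was 2.39, 3.49 and 4.47 percentage points in the GRF1 libraries, against -8.06, -6.27 and -5.95 in the GRF3 libraries, means 10.2 points apart (exact permutation test of 3 against 3, two-sided, p = 0.1, the smallest possible). For summits inside pseudogenes it was 21.6, 12.9 and 22.3 points for GRF1, against -2.39, -7.88 and -8.18 for GRF3, means 25.1 points apart (exact permutation p = 0.1), or 1.90 points apart with folds of at least 4. For the median fold percentile in held-out libraries it was 11.0, 8.30 and 5.57 points for GRF1, against -7.49, -6.87 and -2.39 for GRF3, means 13.9 points apart (exact permutation p = 0.1). With folds of at least 4 this difference was positive in all 6 libraries, with a mean of 7.08. For the 2 position measures the shared regions are nearly the same sites on both sides, and the regions they are set against are not. For the held-out percentile the values at shared regions were 82.5, 77.7 and 76.2 for GRF1, against 69.9, 74.1 and 88.7 for GRF3. The cause of the opposite signs was not tested.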

How the results depend on the processing

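Of 216 recomputed values for 17 results, 169 kept their direction and call, 32 changed sign, 12 moved and 3 kept their direction and newly passed the threshold. With the sign changes counted, 4 newly passed, 1 of them in the opposite direction (inside genes, lists of equal length). No reported test had passed 0.05 after adjustment, and many alternatives could not pass it. The smallest p was 0.0625 for the exact sign-flip test over 5 libraries, 0.1 for 3 against 3 and 0.25 for 3 pairs. The replicate block repeats the main value, so its direction was fixed in advance. Keeping the call is therefore no measure of stability. The means over libraries of the near-gene, distant and gene-poor differences, and of the share with a held-out peak, kept their direction in every alternative run. Such a mean does not give the direction within each factor. Without GRF1 replicate 1 the near-gene mean was -13.0 points with a GRF1 minus GRF3 contrast of -33.3. In that run the mean over 1 kb from genes was 9.30 points with a contrast of 30.8. Without GRF1 replicate 3 the near-gene mean was -11.7 with a contrast of -33.5, and the mean over 1 kb was 8.62 with a contrast of 33.8. In both runs the GRF3 mean was slightly positive near genes and negative over 1 kb, opposite to the main run.

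With summits inside gene spans only, 108 genes and 10 list genes had a shared region. A −log10 q of at least 5 gave a difference inside genes of 9.84 points, inside pseudogenes of -3.21, and a GRF1 minus GRF3 contrast inside genes of -6.71. Folds of at least 4 left 129 shared regions and 142 genes, a difference inside genes of 18.2 points, contrasts of -13.99 inside, 26.8 near, -12.8 far and 1.90 in pseudogenes, a gene-poor difference of 4.09 and a held-out share of 6.65. Peaks in all 3 libraries left 168 regions, 130 genes and 11 list genes, with 4.23 points inside genes, -3.26 in pseudogenes and a contrast inside genes of -10.6. Reciprocal overlap of 50% gave 0.447 inside genes and summits within 100 bp gave 0.846. Lists of equal length left 246 regions, with 11.3 points inside genes, -22.5 near, 11.2 far, 12.6 in gene-poor windows and -2.27 in pseudogenes, contrasts of -9.66 inside and 4.73 near, and a held-out share of 6.35. The cause was not tested.

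Leaving out each library gave 239 to 347 regions (23.6% to 37.7% of the GRF1 and 10.6% to 25.9% of the GRF3 regions), 159 to 210 genes and 13 to 18 list genes. Differences were -4.02 to 3.72 inside, -17.1 to -10.3 near, 8.62 to 18.5 far, 12.8 to 22.9 gene-poor and -9.43 to 8.88 pseudogene. Contrasts were -0.279 to 12.9 inside, -33.5 to 4.72 near, -5.33 to 33.8 far, -6.19 to 27.8 gene-poor and 16.5 to 33.5 pseudogene. Held-out differences were 14.1 to 22.4 for the share and -9.87 to 11.7 for the percentile. In these held-out runs the regions of the reduced factor could rest on a single library, unlike in the main run.

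With the replicate block, the near-gene difference stayed -14.4 points (exact permutation p = 0.25, the smallest 3 pairs allow). Same-numbered libraries did not deviate together (Pearson r of -0.218, -0.370 and -0.0508 over 168 regions), so the numbers were not taken as pairs. Motifs were not run, and depth is unknown.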

Other observations

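The position of the summit inside the peak was one-sided. Of the 129 members at most 330 bp wide, 92 had the GRF1 summit in the first 25% of the region, at lower coordinates, and 1 in the last 25%. Among the wider members the counts were 39 and 23. Over the peaks of single libraries, shared regions had 36.7%, 42.4% and 37.5% of summits in the first 25% in the GRF1 libraries, against 28.3%, 28.1% and 31.4% in other regions. In the GRF3 libraries it was 33.4%, 23.8% and 32.9% in shared regions, against 14.8%, 13.2% and 12.2% in other regions. In the last 25% lay 8.66% to 12.5% of summits in shared regions of the 6 libraries. Other regions had 1.93% to 6.68% there in the GRF1 libraries, against 11.8% to 13.3% in the GRF3 libraries, so the GRF3 regions outside the overlap were close to even.

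At 6 of the 261 members with a peak in all 3 GRF3 libraries, the fold of GRF3 replicate 3 was over 3 times that of both other libraries. No member had this in GRF3 replicate 1 or 2, and 1 of 222 had it in GRF1 replicate 2. These counts were made over members only, so they do not set the shared regions apart from the other regions. The largest excess of GRF3 replicate 3 was at chr4:3655425-3656280, with 7.59, 9.26 and 4.96 for GRF1, against 6.09, 3.85 and 124 for GRF3. The others were in ARF19, SEU, LUG and AT2G44340 and near AT3G09690, where GRF3 replicate 3 had folds of 14.1 to 22.9. CML11, a calmodulin-like gene without a peak in GRF3 replicate 2, had 4.26 and 34.1 in GRF3 replicates 1 and 3.

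Equal folds were frequent: 18.5% to 29.5% of peaks in the GRF1 lists and 31.4% to 56.9% in the GRF3 lists had exactly the fold of another peak of the same list.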
